A study of Mus musculus with 59 samples.

Results

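The heat response examined here is that of the parental embryonic stem cells of the study, read from 2 RNA libraries made after 1 h at 42 °C (parental 1 and parental 2) and 2 libraries of the same names kept at 37 °C. The members are 4 of the 59 samples of the series, chosen by the sample labels, and each heated library was set against the 37 °C library with its number. The cells are mouse embryonic stem cells of a 129xC57Bl6 hybrid background whose genotype is given as Rosa26:BirA, DGCR8 FLAG/Avi, so both temperatures share a tagged DGCR8 allele and the biotin ligase BirA, and no untagged wild type cells entered the comparison. They grew on gelatin in serum with LIF. For comparison, 4 Mettl3 knockout lines (1d1, 3xU, 1d2 and 2c4d), which carry the same alleles plus METTL3KO, were sampled once after the same heat treatment and once at 37 °C, giving 8 further libraries. METTL3 is the catalytic subunit of the complex that writes N6-methyladenosine on RNA, and DGCR8 is the hairpin-binding partner of the nuclease Drosha in the Microprocessor. Chromatin precipitates of DGCR8 (the parental genotype) and of METTL3 (2 libraries at each temperature, H4 and H5, genotype Rosa26:BirA, METTL3 FLAG/Avi), each after heat and at 37 °C, were used only to describe the called genes. Whether parental 1 and parental 2 are separate lines or cultures is not stated in the labels, so the spread between them may be technical. The p-values rest on a spread estimated over all 12 RNA libraries, knockout ones included, not on the parental ones alone.

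Heat unfolds proteins, and the transcription factor HSF1, held inactive by chaperones in unstressed cells, is then released, forms trimers and binds heat shock elements, which are repeats of the unit GAA and its complement TTC. Its targets include HSP70 proteins, which bind unfolded polypeptides in a cycle of ATP hydrolysis, J-domain proteins of the HSP40 family, which stimulate that ATP hydrolysis, and HSP110 proteins, which exchange the nucleotide. Heat also lowers the transcription of many genes and alters splicing, while stress kinases induce immediate early genes.

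The 4 parental libraries held 7102867 and 11358395 counted reads after heat and 13257666 and 12959534 at 37 °C, and the 8 knockout libraries held 8667588 to 13579892. Values below are CPM, counts scaled to library size with TMM factors, and a gene rose or fell where its adjusted p in edgeR's quasi-likelihood test was below 0.05 over the 15635 genes tested. The 10 embryonic stem cell markers summed to 4981 and 5378 CPM after heat, against 5591 and 6089.8 CPM at 37 °C. Of 8 fibroblast markers 3 passed the filter on low counts, and the list summed to 12.6 and 9.72 CPM after heat, against 11.6 and 10.9 CPM at 37 °C. Sums were 45.8 and 48.6 CPM after heat, against 42.3 and 47.1 CPM at 37 °C, for primitive endoderm markers, 127 and 105 CPM, against 113 and 112 CPM, for neuroectoderm markers, and 43.2 and 17.6 CPM, against 30.2 and 18.6 CPM, for trophoblast markers; no gene of these 4 lists was called. Mettl3 had 64.8 and 60.4 CPM in heated parental cells and 71.5 and 69.2 CPM in parental cells at 37 °C, against 20.5 to 35.5 CPM in heated knockout lines and 21.7 to 40.8 CPM in knockout lines at 37 °C; counts per whole gene cannot show which exons remained. Small nucleolar, Cajal body and small nuclear RNA genes took 0.587% and 0.197% of the reads in the heated parental libraries, against 0.130% in each at 37 °C, so heated parental 1 stands apart. In the knockout lines that share was 0.153% to 0.2% after heat and 0.136% to 0.376% at 37 °C.

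After 1 h at 42 °C, 69 genes rose and 50 fell, which is 0.441% and 0.32% of the genes tested (0.761% together). DESeq2 with the same pairing called 96 and 82, or 0.614% and 0.524%. The inducible HSP70 genes Hspa1a and Hspa1b had the largest changes of all called genes, at 228-fold and 136-fold. The HSP40 gene Dnajb1, the immediate early genes Zfp36, Junb and Gadd45b and the linker histone gene Hist1h1t rose 3.78-fold to 5.59-fold. Of the genes that fell, the zinc finger gene Zfp941 stood 4.22-fold lower, the microRNA host transcript Mir17hg 3.38-fold lower and the growth factor gene Fgf4 2.14-fold lower. Of the called genes, 46 rose and 23 fell by more than 2-fold, 0.294% and 0.147% of the genes tested. In all 69 and all 50 both pairs of libraries moved the same way, as did 29.2% (higher) and 31.9% (lower) of all genes tested without regard to a test. The libraries of the 2 temperatures did not overlap for 67 of the 69 and 41 of the 50, against 14.8% of all genes in either direction. Across the 11070 genes whose log2 CPM averaged 2 or more, the differences of the 2 pairs, which share no library, had a correlation of 0.453 (0.258 over all genes tested), as a description over genes that are not independent.

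These counts rest on comparing each heated library with its own 37 °C partner. Without that pairing only Hspa1a and Hspa1b rose and only Zfp941 fell (0.0128% and 0.0064% of the genes tested). The differences between parental 1 and parental 2 had a correlation of 0.452 across genes between the 2 temperatures. Each parental number has its own term, so leaving out 1 parental library also takes its partner out of the heat effect. Such a fit rests on 1 pair, with its spread from the knockout lines, and cannot show whether a call repeats between pairs. Over these fits the log2 fold change ran from 7.23 to 8.53 for Hspa1a, from 2.44 to 2.52 for Dnajb1 and from -1.45 to -0.49 for Neat1.

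**Figure D1:**
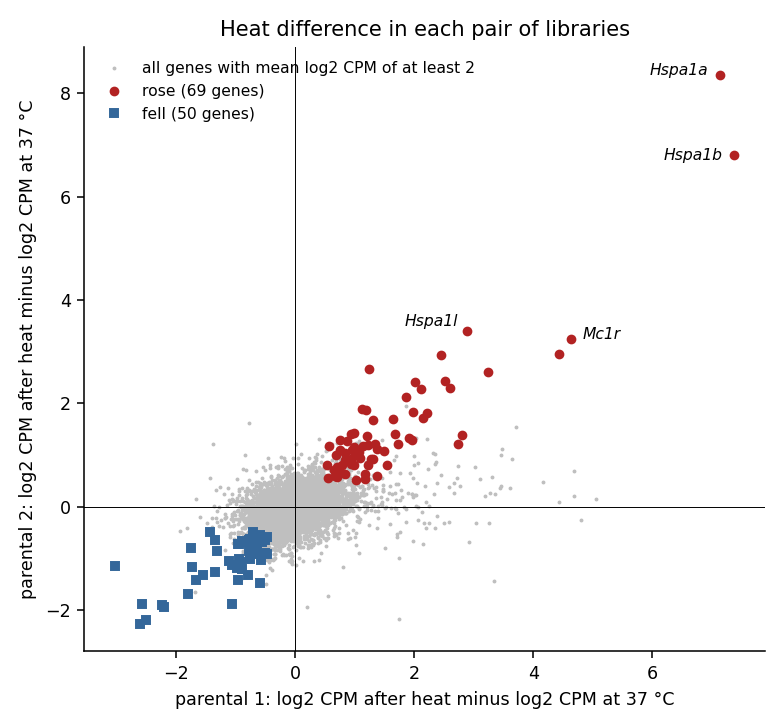
Log2 CPM after heat minus log2 CPM at 37 °C in parental 2 (vertical axis) against the same difference in parental 1 (horizontal axis); grey points are genes averaging a log2 CPM of 2 or more, red circles the 69 genes that rose and blue squares the 50 that fell. Hspa1a and Hspa1b lie alone at the upper right, and the differences had an SD of 0.448 in parental 1 and 0.32 in parental 2.

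Of 15 HSP70 and HSP110 genes listed, 14 were in the table and all 14 were tested. Of these, 4 rose and none fell, beside 0.441% and 0.32% of all genes. The median log2 fold change was 0.20, against -0.0093 over all genes. Hspa1a had 163 and 246 CPM after heat, against 1.06 and 0.657 CPM at 37 °C, from 1198 and 2526 counts after heat and 14 and 8 at 37 °C. The log2 fold change was 7.83 ± 0.23 (SE; adjusted p = 1.48e-08). Hspa1b had 293 and 406 CPM after heat, against 1.67 and 3.53 CPM at 37 °C, a log2 fold change of 7.09 ± 0.22 (adjusted p = 1.72e-08). Both genes were near silence at 37 °C in both libraries and among the well expressed chaperones after heat. They are close copies on chromosome 17 (Hspa1a at 34969359 to 34972156, Hspa1b at 34956429 to 34959238, both on the minus strand of mm10), and how the counting shared reads between copies is not given in the sources used, so the split between them is uncertain.

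Their promoters are shown because these are the genes that moved most and because a pair of the units GAA and TTC can be read in them. The RefSeq windows (GRCm38.p6, minus strand, 250 bases before to 50 after the start) are 98.7% identical, differing at 4 of 300 bases, and capitals mark the one match to GAANNTTC, which begins 104 bases before the start in each. The third window is that of Hsph1, the HSP110 gene (minus strand), in which the match begins 20 bases past the start and belongs to a longer run of 3 units. Capitals mark GAANNTTC only, and other arrangements of GAA and TTC in these windows are left unmarked.
Hspa1a, chr17:34972107-34972406: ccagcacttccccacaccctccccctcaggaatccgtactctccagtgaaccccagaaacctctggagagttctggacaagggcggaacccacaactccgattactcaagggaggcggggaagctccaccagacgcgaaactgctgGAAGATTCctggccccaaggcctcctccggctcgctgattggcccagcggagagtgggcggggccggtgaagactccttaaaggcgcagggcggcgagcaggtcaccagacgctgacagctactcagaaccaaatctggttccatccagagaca
Hspa1b, chr17:34959189-34959488: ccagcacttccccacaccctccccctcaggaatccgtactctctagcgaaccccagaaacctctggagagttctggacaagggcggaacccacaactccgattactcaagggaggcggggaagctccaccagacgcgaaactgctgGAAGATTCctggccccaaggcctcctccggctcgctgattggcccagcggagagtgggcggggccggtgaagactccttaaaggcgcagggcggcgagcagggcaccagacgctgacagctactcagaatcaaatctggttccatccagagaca
Hsph1, chr5:149636266-149636565: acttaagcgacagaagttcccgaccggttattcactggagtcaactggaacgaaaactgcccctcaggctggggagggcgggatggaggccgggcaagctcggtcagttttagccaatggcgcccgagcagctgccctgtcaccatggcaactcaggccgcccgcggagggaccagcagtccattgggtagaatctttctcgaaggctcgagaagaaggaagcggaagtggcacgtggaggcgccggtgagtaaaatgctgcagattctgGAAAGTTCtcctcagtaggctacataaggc

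Hspa1l, the testis-rich HSP70 gene that lies next to Hspa1a and is read in the opposite direction (chromosome 17, 34972703 to 34979228, plus strand), had 3.94 and 3.50 CPM after heat, against 0.456 and 0.246 CPM at 37 °C. Its log2 fold change was 3.37 ± 0.55 (adjusted p = 0.0223), from 29 and 36 counts after heat and 6 and 3 at 37 °C. How reads shared with Hspa1a or Hspa1b were counted is not given, so this rise is uncertain too. Per kilobase of counted length it had 1.51 CPM after heat, against 0.142 CPM at 37 °C. Of the other measured neighbours within 50 kb of Hspa1a, none passed the test: the log2 fold change was -0.21 for Slc44a4, -0.23 for Neu1, 0.20 for 1110038B12Rik, 0.25 for Lsm2 and -0.12 for Vars. Hsph1 had 599 and 398 CPM after heat, against 255 and 175 CPM at 37 °C, a log2 fold change of 1.21 ± 0.17 (adjusted p = 0.00897). Heated parental 2 was thus still above both 37 °C libraries, and each library of parental 1 stood above its parental 2 counterpart.

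The HSP70 family members that cells make without stress did not pass the test. Hspa8, the constitutive cytosolic HSP70, had 332 and 509 CPM after heat, against 303 and 405 CPM at 37 °C (log2 fold change 0.23 ± 0.19, adjusted p = 0.631). Hspa5, the HSP70 of the endoplasmic reticulum, had 687 and 1028 CPM after heat, against 717 and 1018 CPM at 37 °C, and Hspa9, the mitochondrial HSP70, had 1068 and 1435 CPM after heat, against 1134 and 1365 CPM at 37 °C. The HSP110 relative Hspa4 had 1878 and 2421 CPM after heat, against 1816 and 2249.8 CPM at 37 °C. In these 4 genes the 2 temperatures overlapped and the library of parental 2 was the higher one at each temperature. The other members tested were at log2 fold changes of 0.57 (Hspa2), 0.67 (Hspa4l), 0.07 (Hspa13), -0.04 (Hyou1), 0.16 (Hspa12a) and -0.54 (Hspa12b), all with an adjusted p of 0.185 or more.

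Per kilobase of counted length, the levels after heat were 125 CPM for Hspa1b, 101 for Hspa8, 83.5 for Dnajb1, 70.7 for Hsph1 and 69.1 for Hspa1a. At 37 °C the same levels per kilobase were 0.928 for Hspa1b, 85.1 for Hspa8, 15.0 for Dnajb1, 30.5 for Hsph1 and 0.291 for Hspa1a. After 1 h of heat the inducible genes had therefore reached the level range of Hspa8 but not that of Hspa4, Hspa9 and Hspa5, at 389, 318 and 244 CPM per kilobase after heat, against 368, 318 and 247 at 37 °C.

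**Figure D2:**
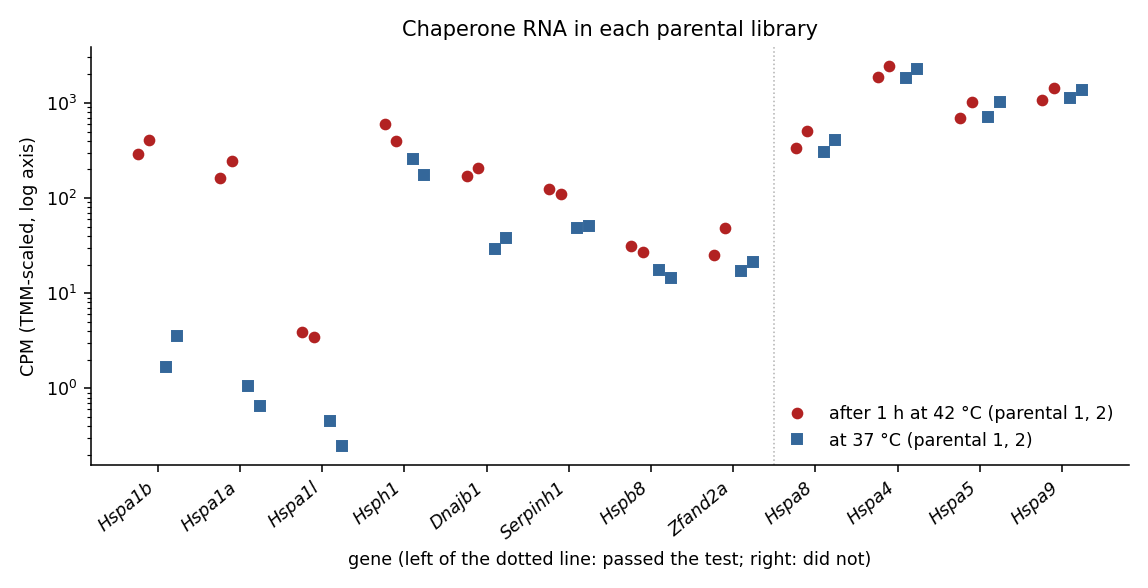
CPM (TMM-scaled, log axis) of 12 chaperone genes in each parental library, with red circles for parental 1 and 2 after 1 h at 42 °C and blue squares for parental 1 and 2 at 37 °C. Hspa1a and Hspa1b lie between 163 and 406 CPM after heat and between 0.657 and 3.53 CPM at 37 °C, while Hspa8, Hspa4, Hspa5 and Hspa9, right of the dotted line, are high at both temperatures.

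Of the partners of HSP70, the 25 J-domain and BAG genes tested held 1 that rose, beside 0.441% of all genes. Dnajb1, the main inducible J-domain protein, had 170 and 208 CPM after heat, against 29.4 and 38.4 CPM at 37 °C (log2 fold change 2.48 ± 0.14, adjusted p = 5.78e-06). Dnaja4, another J-domain gene, had 5.03 and 7.58 CPM after heat, against 2.13 and 1.97 CPM at 37 °C, and did not pass (adjusted p = 0.0589). Bag3, a nucleotide exchange factor and known HSF1 target, had 34.4 and 34.3 CPM after heat, against 29.2 and 28.6 CPM at 37 °C (adjusted p = 0.457).

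Among the remaining chaperone classes, none of 19 HSP90 and co-chaperone genes and none of 10 chaperonin genes passed, with medians of 0.10 and 0.10 and log2 fold changes from -0.07 to 0.37 and from -0.07 to 0.48. Hsp90aa1, the heat-inducible HSP90, had 504 and 857 CPM after heat, against 466 and 673 CPM at 37 °C. Of 11 small heat shock protein and collagen chaperone genes 7 were tested and 2 rose, beside 0.441% of all genes. Serpinh1, the collagen chaperone HSP47, had 125 and 109 CPM after heat, against 48.1 and 50.6 CPM at 37 °C (log2 fold change 1.24 ± 0.15, adjusted p = 0.00454), and Hspb8, a small heat shock protein that works with Bag3, had 31.3 and 26.9 CPM after heat, against 17.4 and 14.4 CPM at 37 °C (0.87 ± 0.12, adjusted p = 0.00897). Among 16 further genes reported as HSF1 targets, Dedd2 and Zfand2a rose, beside 0.441% of all genes. Zfand2a, a regulator of proteasomes under stress, had 25.3 and 48.6 CPM after heat, against 17.0 and 21.4 CPM at 37 °C. None of the 5 tested heat shock factor genes and binders passed; Hsf1 itself had 21.6 and 9.72 CPM after heat, against 15.3 and 12.3 CPM at 37 °C. None of 33 ubiquitin and proteasome genes passed, with log2 fold changes from -0.13 to 0.32, and 27 of them were above 0, beside 48.6% of all genes.

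The pair of units GAANNTTC reads the same on both strands, and the opposite order, TTCNNGAA, was not counted. GAANNTTC was found in the promoter window of 6 of the 47 risen genes that matched a RefSeq promoter (12.8%). It was in 2 of 34 matched fallen genes (5.88%) and 761 of 10733 matched genes tested (7.09%). The 6 risen genes were Hspa1a, Hspa1b, Hsph1, Hspb8, Csrnp2 and Tmem44. The run of 3 units, in which another GAA follows after 2 bases, was searched on both strands and occurred in Hsph1 alone of the 47 (2.13%, against 0.596% of matched genes tested). No GAANNTTC lay in the windows of Dnajb1, Serpinh1 or Zfand2a, which says only that these letters are not in those 300 bases. The Zfand2a window does hold the opposite order, as TTCTAGAA. TGACGTCA, the cyclic AMP response element, was in 5 of the 47 (Clk4, Tra2a, Zfand2a, Errfi1 and Tmem251; 10.6%, against 3.59% of matched genes tested and 8.82% of matched fallen genes). The CArG box, the site of serum response factor, was in 3 of the 47 (6.38%, against 1.52%), Zfp36 among them. These shares are descriptions with no test.

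Immediate early genes, which are switched on within minutes by kinase signals, made up the next group. Of 29 tested, 22 were higher after heat, 3 rose and none fell, beside 48.6% higher and 0.441% risen among all genes, with a median log2 fold change of 0.44. Zfp36, whose protein tristetraprolin binds AU-rich mRNA and speeds its decay, had 20.3 and 17.4 CPM after heat, against 3.27 and 3.45 CPM at 37 °C (2.48 ± 0.22, adjusted p = 0.000489). Junb, a subunit of AP-1, had 82.5 and 64.4 CPM after heat, against 18.6 and 19.6 CPM at 37 °C (1.93 ± 0.24, adjusted p = 0.00475). Gadd45b, a stress gene upstream of p38 and JNK, had 20.9 and 27.9 CPM after heat, against 5.25 and 7.72 CPM at 37 °C (1.92 ± 0.19, adjusted p = 0.00121). In all 3 both heated libraries stood above both 37 °C libraries, as they did for 67 of the 69 risen genes and 14.8% of all genes. Jun and Fos, which are also AP-1 subunits, missed the threshold. Jun had 14.7 and 15.4 CPM after heat, against 7.45 and 5.83 CPM at 37 °C (adjusted p = 0.0516). Fos had 6.12 and 3.69 CPM after heat, against 1.37 and 1.31 CPM at 37 °C (adjusted p = 0.064). Egr1 differed more between parental 1 and 2 than between temperatures, with 32.8 and 11.0 CPM after heat, against 19.2 and 5.66 CPM at 37 °C.

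Genes outside that list, named after their values were seen, included Socs3, the feedback inhibitor of the LIF and JAK-STAT signal that keeps these cells undifferentiated, with 392 and 263 CPM after heat, against 104 CPM in each library at 37 °C (1.63 ± 0.19, adjusted p = 0.00297). Icam1, a cell adhesion receptor, had 226 and 195 CPM after heat, against 106 and 101 CPM at 37 °C, and Mc1r, the melanocortin receptor, had 4.08 and 2.33 CPM after heat, against 0.076 and 0.164 CPM at 37 °C, which is 1 and 2 counts at 37 °C. Of 20 tested p53 targets, Pmaip1, the BH3-only gene for NOXA, rose (228 and 197 CPM after heat, against 133 and 113 CPM at 37 °C; 0.79 ± 0.16, adjusted p = 0.047) and none fell. The median of the list was 0.12, and 0.441% of all genes rose.

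Splicing kinases and SR factors gave 2 calls among 19, both higher, beside 0.441% of all genes. Clk4, a kinase that phosphorylates SR proteins, had 79.8 and 94.5 CPM after heat, against 40.1 and 42.4 CPM at 37 °C (1.07 ± 0.12, adjusted p = 0.00297). Tra2a, an SR-like splicing activator, had 256 and 266 CPM after heat, against 176 and 181 CPM at 37 °C (0.55 ± 0.10, adjusted p = 0.0376). Clk1, the closest relative of Clk4, had 227 and 283 CPM after heat, against 180 and 144 CPM at 37 °C, and did not pass (adjusted p = 0.129). Counts per gene over exons cannot show retained introns.

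Histone genes were higher in most cases. Of 52 replication-dependent histone genes tested, 44 were higher, 5 rose (Hist1h2bp, Hist1h2ak, Hist1h2aa, Hist1h2be and Hist1h2bk) and none fell, beside 48.6% higher and 0.441% risen among all genes, with a median log2 fold change of 0.58. The list summed to 5528 and 5946 CPM after heat, against 3359 and 4883 CPM at 37 °C, and the sum of parental 2 at 37 °C was nearer to the heated values. The linker histone gene Hist1h1t, known from the testis, had 25.8 and 21.1 CPM after heat, against 7.07 and 4.76 CPM at 37 °C (2.00 ± 0.19, adjusted p = 0.000977). Histone genes are near copies of each other, so single members are uncertain.

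**Figure D3:**
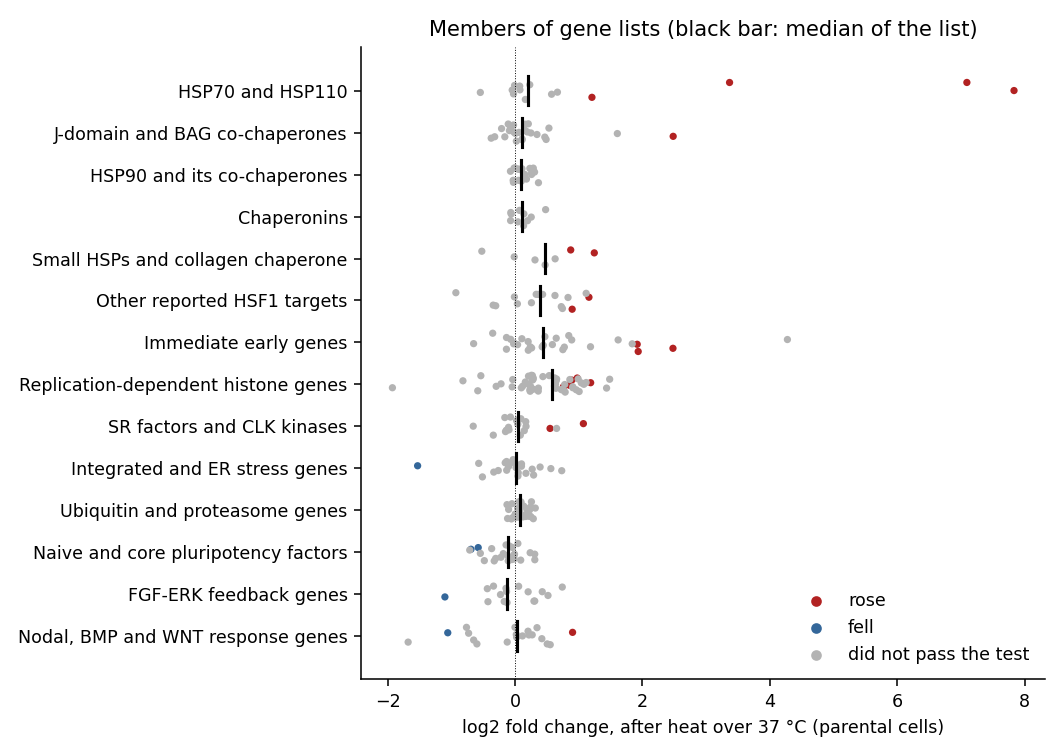
Log2 fold change after heat over 37 °C in parental cells for the tested members of 14 gene lists; each point is a gene, red for genes that rose, blue for genes that fell and grey for genes that did not pass, and the black bar is the median of the list. The HSP70 list spreads from -0.54 to 7.83 with a median of 0.20, and the pluripotency list has its median at -0.11.

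The falling side held growth factor, signalling and pluripotency genes. Fgf4, the ligand through which embryonic stem cells activate their own FGF receptors and ERK, had 89.4 and 92.4 CPM after heat, against 187 and 203 CPM at 37 °C (log2 fold change -1.10 ± 0.11, adjusted p = 0.00125). It was the only call among 16 FGF and ERK feedback genes, beside 0.761% of all genes called. The feedback inhibitor Spry4 had 258 and 180 CPM after heat, against 316 and 266 CPM at 37 °C (adjusted p = 0.241). Of 24 naive and core pluripotency factors, 19 were lower, 2 fell and none rose, beside 51.4% lower and 0.32% fallen among all genes, at a median of -0.11. Tdgf1, the Nodal co-receptor Cripto, had 458 and 686 CPM after heat, against 694 and 1008 CPM at 37 °C (-0.58 ± 0.10, adjusted p = 0.0274), and Tbx3, a naive-state T-box factor, had 170 and 86.1 CPM after heat, against 236 and 162 CPM at 37 °C (-0.69 ± 0.12, adjusted p = 0.0337). Heated parental 2 almost reached 37 °C parental 1 for Tdgf1, and heated parental 1 lay above 37 °C parental 2 for Tbx3, while each pair fell. In bulk RNA, fewer cells of a type and less RNA per cell cannot be told apart. Nanog, at 299 and 345 CPM after heat, against 405 and 540.2 CPM at 37 °C, did not pass (adjusted p = 0.0762), nor did Sox2 (adjusted p = 0.0751) or Klf4 (adjusted p = 0.064). Pou5f1 had 924 and 1166 CPM after heat, against 763 and 919 CPM at 37 °C, a log2 fold change of 0.31 that did not pass.

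Among 19 Nodal, BMP and WNT response genes, Id2, an inhibitor of basic helix-loop-helix factors, rose and Smad7, the inhibitory SMAD, fell. Of all genes, 0.441% rose and 0.32% fell. Smad7 had 65.1 and 31.8 CPM after heat, against 113 and 79.9 CPM at 37 °C (-1.06 ± 0.19, adjusted p = 0.0337). The Nodal inhibitor Lefty1 had 5.98 and 6.32 CPM after heat, against 19.5 and 19.9 CPM at 37 °C (adjusted p = 0.0589). Epha2 and Foxd3, a receptor tyrosine kinase and a forkhead factor of the pluripotent state that were named after their values were seen, fell as well, with log2 fold changes of -1.06 and -1.04.

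Zfp941, a zinc finger gene, had 6.93 and 6.61 CPM after heat, against 32.2 and 25.6 CPM at 37 °C (-2.08 ± 0.17, adjusted p = 0.000383). Of 334 genes named Zfp, 6 fell (1.8%, beside 0.32% of all genes) and 2 rose (0.599%, beside 0.441%), at a median of -0.0228. The risen ones include Zfp36, which is of another zinc finger class. Zfp867 had 5.57 and 5.83 CPM after heat, against 14.4 and 14.0 CPM at 37 °C, and Zfp386 had 17.7 and 15.6 CPM after heat, against 44.0 and 28.6 CPM at 37 °C. Ppp1r10, a nuclear targeting subunit of protein phosphatase 1, had 44.5 and 23.0 CPM after heat, against 93.0 and 85.4 CPM at 37 °C (-1.47 ± 0.19, adjusted p = 0.00575). Yod1, a deubiquitinase gene that overlaps Pfkfb2, had 2.31 and 1.36 CPM after heat, against 14.6 and 6.90 CPM at 37 °C (-2.51 ± 0.32, adjusted p = 0.00568).

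Mir17hg, the primary transcript of the miR-17 to miR-92 cluster that the Microprocessor cuts, had 28.4 and 9.62 CPM after heat, against 99.5 and 31.1 CPM at 37 °C (-1.76 ± 0.22, adjusted p = 0.00531). Parental 1 stood above parental 2 at each temperature, and the heated parental 1 library lay just below the 37 °C parental 2 library. The hairpin gene Mir92-1 within it had 5 and 3 counts after heat, against 59 and 16 at 37 °C, and also fell (-2.49 ± 0.49, adjusted p = 0.047). These libraries were not made from small RNA, so counts over a hairpin come mostly from longer transcripts and say nothing of the mature microRNA. The mature products of the hairpin, from RefSeq (GRCm38.p6, plus strand), are shown for identity, with the seed (bases 2 to 8) in capitals.
miR-92a-1-5p, chr14:115044437-115044459: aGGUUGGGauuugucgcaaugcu
miR-92a-3p, chr14:115044476-115044496: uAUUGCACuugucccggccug

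None of 15 Microprocessor and silencing genes passed, and 12 were lower, beside 51.4% of all genes, at a median of -0.17; Dgcr8 had 93.3 and 96.1 CPM after heat, against 109 and 103 CPM at 37 °C. None of 19 m6A genes passed, at a median of -0.0491. Of 12 nuclear long noncoding RNAs, Neat1, the scaffold of paraspeckles, fell, beside 0.32% of all genes. Neat1 had 35.2 and 8.55 CPM after heat, against 95.4 and 12.1 CPM at 37 °C (-1.06 ± 0.20, adjusted p = 0.041). Its distance between parental 1 and 2 was larger than that between temperatures.

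Of the integrated, endoplasmic reticulum, oxidative and metal stress genes, 1 was called, beside 0.761% of all genes. Of 24 integrated and endoplasmic reticulum stress genes, 13 were higher and 11 lower, beside 48.6% and 51.4% of all genes, and the call was Chac1, a glutathione-degrading enzyme induced by ATF4 and CHOP, which fell. It had 5.44 and 2.04 CPM after heat, against 18.2 and 4.68 CPM at 37 °C (-1.53 ± 0.24, adjusted p = 0.0218). None of 12 oxidative and metal stress genes passed; Hmox1, the heme oxygenase also known as a heat-inducible gene, had 38.6 and 43.1 CPM after heat, against 52.5 and 74.9 CPM at 37 °C (adjusted p = 0.115).

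Small nucleolar RNA genes (a list added after the data were seen) were higher in most cases as well: 9 of 143 tested rose, beside 0.441% of all genes, none fell, 115 were higher (85 in both pairs), beside 48.6% of all genes (29.2% in both pairs), and the median log2 fold change was 0.94. Snord34, a C/D box RNA that lies with Snord33 inside Rpl13a, had 20.0 and 18.4 CPM after heat, against 4.26 and 5.17 CPM at 37 °C (2.02 ± 0.26, adjusted p = 0.00575). Snord33 had 20.3 and 10.4 CPM after heat, against 2.97 and 4.43 CPM at 37 °C, and Snord70 had 19.2 and 7.29 CPM after heat, against 2.66 and 2.71 CPM at 37 °C. Gm22879 and Gm23650, genes 74 bases and 70 bases long with no RefSeq match, rose too; Gm22879 had 117 and 178 CPM after heat, against 27.0 and 36.7 CPM at 37 °C (2.20 ± 0.21, adjusted p = 0.000977). The list summed to 3944 and 1983 CPM after heat, against 1298 and 1350.1 CPM at 37 °C, and heated parental 1, the smallest library, stood above the other 3. The small RNA share of heated parental 1 is given above, and its part in this result was not tested. Of 25 host genes of small nucleolar RNAs, 1 rose and 2 fell (Zfas1 and Snhg6), beside 0.441% and 0.32% of all genes.

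Ribosomal protein genes gave 3 calls of 85, beside 0.761% of all genes called. Rpl7a had 343 and 447 CPM after heat, against 179 and 253 CPM at 37 °C (0.88 ± 0.12, adjusted p = 0.0078), and it overlaps 4 other RefSeq genes. Rpl3, which holds Snord43 and Snord83b, fell, with 1.36 and 1.65 CPM after heat, against 11.7 and 3.78 CPM at 37 °C. That fall rests on few reads (10 and 17 counts after heat, 154 and 46 at 37 °C). It was uneven, at -3.02 in pair 1 and -1.15 in pair 2 on the log2 scale. Rpl10a also fell, with 16.2 and 13.7 CPM after heat, against 54.7 and 23.8 CPM at 37 °C. Of the 112 called genes that could be placed, 59 overlap another RefSeq gene (33 that rose and 26 that fell), and no source used here gives the strand used in counting.

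The 4 Mettl3 knockout lines moved the same way for most of these genes. Their libraries do not enter the parental heat term, but they do enter the filter, scaling and spread of the same fit. Calls in the 2 groups are therefore not independent. Of the 69 risen genes, 59 were higher in the knockout lines (47.1% of all genes were) and 51 rose there (3.87% of all genes did). Of the 50 fallen genes, 49 were lower in the knockout lines (52.9% of all genes were) and 42 fell there (2.9% of all genes did). The median log2 fold change of the 69 was 1.16 in parental cells and 0.80 in knockout lines, and that of the 50 was -0.93 and -0.62; the parental medians are those of genes picked for their parental values. Hspa1a had a log2 fold change of 7.83 in parental cells and 7.53 in knockout lines, Hspa1b 7.09 and 6.52, Dnajb1 2.48 and 2.26, and Fgf4 -1.10 and -0.75. The difference of the heat effects, tested for each gene, was called for 2 of 15635 genes (0.0128%), Snord34 and Gm22879, and 952 genes had an unadjusted p below 0.05, where 782 would by chance. More knockout lines than parental pairs were sampled, so the 605 and 453 genes that rose and fell in knockout lines are not comparable with 69 and 50 as numbers.

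Snord34 had 20.0 and 18.4 CPM in heated parental cells and 4.26 and 5.17 CPM in parental cells at 37 °C, against 2.34 to 7.69 CPM in heated knockout lines and 6.03 to 17.9 CPM in knockout lines at 37 °C. The parental minus knockout difference was 2.96 ± 0.32 on the log2 scale (adjusted p = 0.0116). For Gm22879 the difference was 2.35 ± 0.26 (adjusted p = 0.0116). Neither is called without the pairing, and no gene is without either library of parental 1, the heated library of parental 2 or either library of knockout line 3xU. The small nucleolar RNA list was higher for 36 of 143 genes in the knockout lines, at a median of -0.30 (all genes: 47.1% and -0.018). In parental cells it was higher for 115 of 143, at a median of 0.94 (all genes: 48.6% and -0.0093). Small nucleolar, Cajal body and small nuclear RNA genes took 0.587% of reads in heated parental 1 and 0.197% in heated parental 2. At 37 °C they took 0.376% in 1d1 and 0.261% in 3xU, against 0.138% in 1d2 and 0.136% in 2c4d. The part of these shares in the difference between the groups was not tested. Chac1 was the one fallen gene that was not lower in the knockout lines, where it had 3.81 to 6.07 CPM after heat and 2.11 to 3.03 CPM at 37 °C (0.74, adjusted p = 0.0391), and its difference of -2.27 ± 0.31 did not pass (adjusted p = 0.0659).

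**Figure D4:**
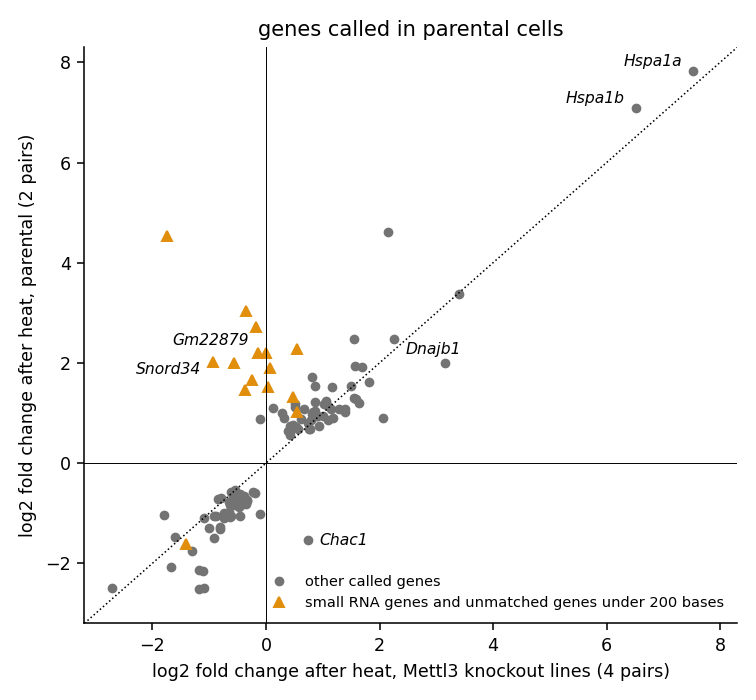
Log2 fold change after heat in parental cells (vertical axis, 2 pairs) against that in Mettl3 knockout lines (horizontal axis, 4 pairs) for the 119 genes called in parental cells; triangles mark small RNA genes and unmatched genes under 200 bases, circles the other genes, and the dotted line marks equal values. Hspa1a and Hspa1b lie near the line, most triangles lie at the left of it near or below 0 on the knockout axis, and Chac1 lies below 0 in parental cells and above 0 in knockout lines.

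The chromatin libraries gave 1 value per temperature for DGCR8 and for each METTL3 precipitate, so these ratios have no replicate check. Their 95% intervals (exact binomial) cover counting error only. No input library entered the ratios, and the inputs of the heat set were made at 37 °C only. The ratios therefore compare precipitated reads, not enrichment over input. In the 5 kb window that holds the 3′ end of Hspa1a and the bases past it, DGCR8 had 87.6 CPM after heat, against 3.92 CPM at 37 °C, METTL3 H4 had 2835 CPM after heat, against 6.11 CPM at 37 °C, and METTL3 H5 had 4660.45 CPM after heat, against 4.46 CPM at 37 °C. The next window, which holds the start and most of Hspa1a, was lower after heat than that one but above its own 37 °C level: DGCR8 had 10.5 CPM after heat, against 2.45 CPM at 37 °C, METTL3 H4 had 262 CPM after heat, against 2.65 CPM at 37 °C, and METTL3 H5 had 535 CPM after heat, against 2.40 CPM at 37 °C. In the window that holds all of Hspa1b, DGCR8 had 70.1 CPM after heat, against 3.23 CPM at 37 °C, METTL3 H4 had 2094 CPM after heat, against 5.59 CPM at 37 °C, and METTL3 H5 had 3361 CPM after heat, against 5.53 CPM at 37 °C. The window between the genes was lower after heat than either window beside it, at 7.98 CPM for DGCR8, 30.0 CPM for METTL3 H4 and 28.8 CPM for METTL3 H5. In the windows centred 24.7 and 19.7 kb from the Hspa1a start, beyond Hspa1b, DGCR8 was instead lower after heat, with 6.48 and 12.7 CPM after heat, against 36.8 and 33.4 CPM at 37 °C. METTL3 went the other way in the 19.7 kb window, with 83.4 CPM for H4 and 72.0 CPM for H5 after heat, against 14.4 and 13.9 CPM at 37 °C.

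**Figure D5:**
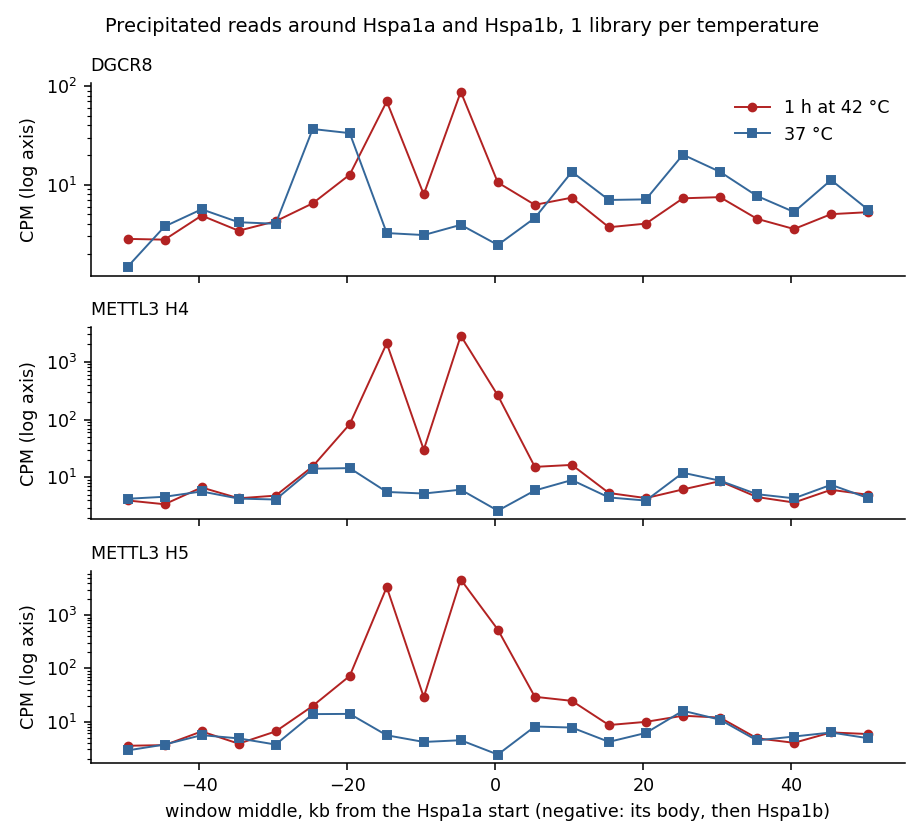
CPM (log axis) of DGCR8, METTL3 H4 and METTL3 H5 precipitates in 5 kb windows by distance from the Hspa1a start in kb, negative toward its body and Hspa1b; red circles are the library after 1 h at 42 °C and blue squares the library at 37 °C. All 3 heated libraries have peaks in the window of the Hspa1a 3′ end and in that of Hspa1b, which the 37 °C libraries lack.

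Over whole genes, the log2 ratio of heat over 37 °C at Hspa1a was 3.94 (interval 3.70 to 4.21) for DGCR8, 8.46 (8.35 to 8.59) for METTL3 H4 and 9.56 (9.42 to 9.71) for METTL3 H5. At Hsph1 it was 3.26, 4.22 and 3.52, at Dnajb1 2.31, 3.59 and 3.09, and at Serpinh1 1.31, 2.11 and 1.51, in the same order. Of 65 risen genes with counts, 6 were more than 2-fold higher in all 3 precipitates (9.23%, against 12 of 14867 genes or 0.0807%): Hspa1a, Hspa1b, Hspa1l, Dnajb1, Hsph1 and Serpinh1. All 6 are chaperone genes, and Hspa1l shares a window with Hspa1a. More than 2-fold higher in single precipitates were 8 for DGCR8, 6 for METTL3 H4 and 11 for METTL3 H5 of the 65, against 1.71%, 0.43% and 0.403% of all genes. Over all 65, the median ratio was -0.29 for DGCR8, -0.37 for METTL3 H4 and -0.03 for METTL3 H5, against -0.42, -0.28 and -0.15 over all genes, so risen genes as a class did not stand above the rest in METTL3 H4. Zfp36 had log2 ratios of 0.21, -0.76 and 1.48 and Socs3 0.60, -1.08 and 1.11, values on which H4 and H5 differ in sign.

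Of the 47 fallen genes with counts, 15 were more than 2-fold lower in all 3 precipitates (31.9%, against 3.11% of all genes), Fgf4, Zfp941, Tdgf1, Smad7, Chac1 and Yod1 among them, and none was more than 2-fold higher in any. More than 2-fold lower in single precipitates were 27 for DGCR8, 23 for METTL3 H4 and 17 for METTL3 H5 of the 47, against 17.8%, 7.28% and 4.47% of all genes. Their median ratio was -1.13 for DGCR8, -0.86 for METTL3 H4 and -0.73 for METTL3 H5. Fgf4 had 8.95 CPM of DGCR8 after heat, against 65.3 CPM at 37 °C, and log2 ratios of -2.86, -1.80 and -1.37. Mir17hg, a direct substrate of the Microprocessor, had 59.8 CPM of DGCR8 after heat, against 664 CPM at 37 °C, and log2 ratios of -3.47, -1.29 and -0.73. RNA and precipitate went opposite ways for Rpl7a, Snord33, Snord34, Snord47, Snord87 and Snora62, whose counts rose while all 3 precipitates were more than 2-fold lower after heat; Snord33 and Snord34 share 1 window. The precipitates of DGCR8, METTL3 H4 and METTL3 H5 held 79339708, 86256100 and 81462704 reads after heat, against 20405596, 64625830 and 59183560 reads at 37 °C.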

How the data were processed

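RNA was ribosomal-RNA-depleted total RNA made into ScriptSeq v2 libraries, per the labels' protocols. The authors deposited whole-number counts per gene over exons and, for the precipitates, counts per 5 kb window; Bowtie and mm10 are named per the submitters' processing notes. The annotation, the strand used in counting and the treatment of multiply mapped reads are not given in the sources used here. No column was left unmapped (0).

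Counts of all 12 heat-set libraries were fitted with edgeR 4.0.16 in R 4.3.3 (TMM, filterByExpr, quasi-likelihood F test) with a term for each of 6 cell lines or numbers, a heat effect in parental cells and one in knockout lines, which leaves 4 residual degrees of freedom (1 for the parental libraries alone). P-values were adjusted by Benjamini-Hochberg over 15635 genes. The SE is the log2 fold change over the square root of F. The members, lists and this pairing by number were chosen with earlier results of these data known. The pairing was checked: differences between parental 1 and 2 correlated at 0.452 between temperatures, and deviations of same-numbered knockout libraries at 0.624 to 0.723. On simulated counts of 15635 genes for the parental comparison, 85 of 100 genes changed 2-fold and 99 of 100 changed 4-fold were called, with 14 false calls among 15435. The simulated libraries held no differences between lines, and parental and knockout libraries shared 1 spread per gene. The changed genes were drawn from the better expressed ones, so these rates need not hold for the real libraries.

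Named genes were the HSP70 and HSP110 genes, up to 12 rising and 12 falling called genes with the largest change (mean log2 CPM of at least 2, both pairs alike), up to 4 genes of each list with the smallest p, checks of the labels and genes called for the parental minus knockout difference. Socs3, Icam1, Mc1r, Epha2, Foxd3, Mir92-1, Snhg6, Egr1, the genes holding a motif and those named for their precipitates were named after their values were seen. Precipitate ratios used windows overlapping a gene, at least 50 counts over both libraries and a pseudocount of 1. For the METTL3 precipitates the titles were followed where another label differed. Counting error limits each count, and PCR copies are not independent molecules. Alternatives were other scalings, filters, DESeq2 1.42.0, no pairing, the parental libraries alone and each library left out.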

Additional observations from a re-analysis of the deposited data

Results flagged for a closer look

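Snord34 was noted because its heat effect differed between parental cells and Mettl3 knockout lines by the test of the difference itself: 2.96 ± 0.32 on the log2 scale (adjusted p = 0.0116, edgeR), from a log2 fold change of 2.02 in parental cells and -0.94 in knockout lines. It was higher after heat in 2 of 2 parental pairs. Gm22879 met the same test, with a difference of 2.35 ± 0.26 (adjusted p = 0.0116), from 2.20 in parental cells and -0.15 in knockout lines. Small nucleolar, Cajal body and small nuclear RNA genes took 0.587% and 0.197% of reads in the heated parental libraries, against 0.130% in each at 37 °C. In the knockout lines at 37 °C they took 0.376% (1d1), 0.261% (3xU), 0.138% (1d2) and 0.136% (2c4d), against 0.153% to 0.2% after heat. The part of these shares in either result was not tested. Chac1 was noted for 1 heated knockout library, at 6.07 CPM, which lay far from the other 3; chance flags about 1 in 20 such groups.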

How the results depend on the processing

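Parental calls ranged as follows. Without the replicate block 2 genes rose and 1 fell. With the 4 parental libraries alone 174 rose and 151 fell under the block, and 2 and 0 without it. DESeq2 with the block gave 96 and 82, and no filter on low counts 442 and 337. Leaving out each library gave 8 to 58 higher and 3 to 16 lower. RLE factors, upper quartile factors and a mean of at least 10 counts gave 70 and 50, 75 and 53, and 73 and 50. Without small RNA and mitochondrial genes, an alternative chosen after seeing the data, 75 rose and 54 fell. All 119 called genes kept their direction in the others, as did the 107 of them that this last fit held. Both pairs of all 119 had moved the same way and every fit reuses these libraries, so this is no separate check. The parental minus knockout difference had 2 higher and 0 lower calls, against 0 and 0 without the block, 15 and 2 by DESeq2, 200 and 65 with no filter, 1 and 0 without small RNA and mitochondrial genes, and 0 to 9 and 0 to 2 with each library left out. Hspa9, which was not called, changed sign to 0.0026 without the block, 0.0045 and 0.011 in the 4 parental libraries alone with and without it, and 0.0016 with a mean of at least 10 counts. Among genes that were not called, leaving out each library took the log2 fold change across 0 for 1110038B12Rik (-0.055 to 0.44), Hsf1 (-0.34 to 0.49), Hspa12a (-0.072 to 0.36), Hspa12b (-2.04 to 0.72), Hspa5 (-0.076 to 0.018), Hspa9 (-0.10 to 0.077) and Hyou1 (-0.13 to 0.031). Minimums of 20 or 100 counts kept the same 65 risen and 47 fallen genes, so their precipitate medians could not move and this is no check. The causes were not tested. With 2 libraries a group, changes under 2-fold are at the limit of what these counts can show.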
